A study of Mus musculus with 816 samples.

Results

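Interleukin 10 (IL10) was added to primary mouse microglia together with a low dose of bacterial lipopolysaccharide (LPS), and gene expression was measured after 72 h. The comparison concerned the 5 cultures labelled LPS_lo + IL10 at 72 h and the 11 cultures labelled LPS_lo alone at 72 h, chosen by their labels from the 816 samples of the series, of which 784 are cultures. Neonatal microglia of a single commercial lot were grown in multi-well plates, stimulated once they had settled, and profiled by 3′-end RNA sequencing. LPS_lo is LPS at 0.00001 µg/µl in both groups, and the labels give no dose for the IL10 of the combination. For reference, 25 untreated cultures and 6 cultures with IL10 alone (0.00005 µg/µl) of the same time point were used, along with 5 cultures each of LPS_lo + IL4, LPS_lo + IL13 and LPS_lo + IL4 + IL10 + IL13. The cultures are wells and not animals, so the errors and p-values describe the spread between wells of the same lot of cells.

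LPS is sensed by Toll-like receptor 4 with its co-receptor Cd14 and switches on cytokine genes through NF-kB and, by way of type I interferon, the antiviral genes. IL10 is the main cytokine that limits this response in macrophages and microglia. It binds a receptor made of Il10ra and Il10rb, the kinases Jak1 and Tyk2 then activate Stat3, and Socs3 is the classical early target gene of that route.

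The 5 cultures with IL10 were not alike, and this bears on every result. Cultures 1 to 3 stood on plate A and cultures 4 and 5 on plate C, while the LPS_lo cultures stood on plates B (4 cultures), A (4) and D (3). Plate A alone held both groups, and there 2 of the 3 cultures with IL10 came from another library pool than the 4 with LPS_lo, so that pool and treatment cannot be told apart for them. Depth, estimated from the smallest steps of the CPM, was 2037900 to 11570900 mapped reads with IL10 and 1048800 to 11271200 without. In the 2 plate C cultures only 6611 and 6971 genes lay above 5 CPM (reads of a gene per 1e6 mapped reads), against 8049 to 8542 in the other 14. The single gene Hnrnpll took 19.1 and 20.7% of their reads, against 6.22 to 11.6% in the plate A cultures with IL10 and 5.18 to 6.15% with LPS_lo. Over all genes, Pearson's r between a plate A and a plate C culture with IL10 was 0.744 to 0.788, between the 2 plate C cultures 0.756, and between LPS_lo cultures of different plates 0.784 to 0.918, as a description across genes. The median log2 fold change of all genes was -0.27 with all cultures, -0.18 there without the reads of Hnrnpll, and -0.06 within plate A. The main results of this comparison are given with all cultures and within plate A (3 against 4 cultures), and the part of plate, pool and read share in the difference between those values was not tested.

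The cells carried the markers of macrophages. All 8 pan-macrophage genes averaged above 5 CPM in both groups, and their summed level was 14367 to 16658 CPM with IL10 and 12287 to 16614.5 CPM without. The 13 homeostatic microglia markers, of which 8 averaged above 5 CPM in each group, summed to 2423 to 4485 CPM with IL10 and 2335 to 4224 CPM without. Markers of T and NK cells, B cells, neutrophils and neurons each summed to at most 11.8 CPM in any of the 16 cultures. Markers of astrocytes summed to at most 45.5 CPM, of endothelial cells to at most 91.8 CPM and of oligodendrocytes and their precursors to at most 111 CPM. Those of fibroblasts and pericytes reached 105 CPM in 1 culture with IL10 and 18.2 CPM with LPS_lo. In such bulk samples, fewer cells of a kind and less RNA in each cell cannot be told apart.

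With IL10 added to LPS_lo, Il1b, Cxcl10 and Ptgs2 were among the genes that fell, and Spp1, Fn1 and Il4ra among those that rose. A gene was counted as changed when limma gave an adjusted p under 0.05 over all genes and the mean log2(CPM + 1) differed by at least 1, a scale that understates the change of genes with few reads. With all cultures, 35 of 11816 genes rose (0.296%) and 149 fell (1.26%), 1.56% in all. The split depended on the scaling, with 57 higher and 79 lower after median-ratio scaling and 68 higher and 75 lower after quantile normalization, and on the library pool, with 25 higher and 20 lower when pool was in the model. The fit took its spread from all 7 groups, and without the untreated edge wells 391 genes passed. Within plate A, 19 of 10239 rose (0.186%) and 24 fell (0.234%), 0.420% in all. With all plate C cultures left out, which kept 48 of the 62 cultures, 16 genes rose and 23 fell, and without LPS_lo + IL10 culture 4 or culture 5 alone 55 and 59 genes passed. Of the 184 genes that passed with all cultures, 176 could be tested within plate A. Over these, the median of the falls was -1.98 with all cultures and -1.12 within plate A, and that of the rises 1.59 and 1.38. The plate A cultures enter both fits, so the values within plate A are no independent check. In both fits 31 genes passed, 14 higher and 17 lower, and 22 of them also passed without plate C. These 31 were chosen by both fits, so their values in them are a description.

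**Figure D1:**
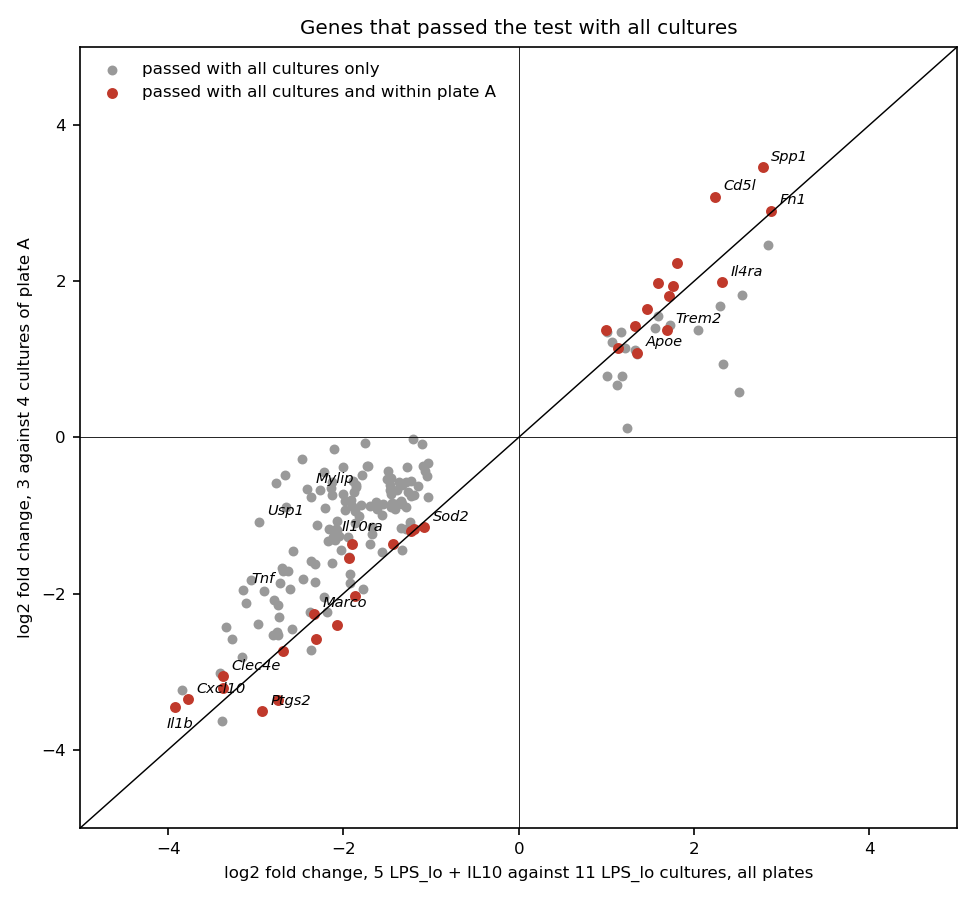
Log2 fold change of LPS_lo + IL10 over LPS_lo at 72 h within plate A (vertical axis) against that with all cultures (horizontal axis), for the 176 genes that passed with all cultures and were tested within plate A. Each point is a gene, red points are the 31 that passed in both, and the diagonal marks equal values. Most rises lie near the diagonal, whereas many falls, such as Usp1 and Mylip, are smaller within plate A. Of the rises, Aimp2 (2.51 and 0.58) and Tspan13 (2.33 and 0.94) are also smaller within plate A, and Cd5l (2.24 and 3.08) is larger.

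Of the 17 falls seen in both fits, the largest with all cultures was that of Il1b (GRCm38 chromosome 2, 129364570 to 129371139), which encodes the inflammatory cytokine interleukin 1β. Its level was 2.04, 0.636 and 0.778 CPM in the plate A cultures with IL10 and 0 and 0.275 CPM in those of plate C, against 4.54 to 38.8 CPM (median 26.4) over the 11 LPS_lo cultures. The groups did not overlap, as for 0.745% of all genes with the lower level under IL10, and all 5 cultures with IL10 lay within the range of the untreated ones (0 to 10.4 CPM). The log2 fold change was -3.92 (SE 0.54, limma adjusted p = 2.38e-06) with all cultures and -3.46 (SE 0.64, adjusted p = 0.00633) within plate A.

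Cxcl10 (chromosome 5, 92346638 to 92348889), a chemokine of T cells that is induced by interferon, fell almost as far. It was at 0.943, 1.91 and 3.72 CPM on plate A and 2.45 and 0 CPM on plate C with IL10, and at 3.99 to 83.3 CPM (median 51.5) with LPS_lo. The lowest LPS_lo culture, on plate A, lay just above the highest with IL10. Within plate A, 6.76% of all genes were lower and 5.33% higher in every culture with IL10 than in any without. The log2 fold change was -3.77 (SE 0.63, adjusted p = 0.000158), and -3.35 (adjusted p = 0.0283) within plate A.

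Tnf, the other classical cytokine of the LPS response, fell by 3.14 on the log2 scale with all cultures (SE 0.75, adjusted p = 0.0127). With IL10 it was at 32.9, 91.6 and 107 CPM on plate A and 1.47 and 45.9 CPM on plate C, all below the 136 to 402 CPM of LPS_lo. Within plate A the log2 difference of -1.95 missed the threshold (adjusted p = 0.0869), and 1 plate C culture with 1.47 CPM stood far below the other 4.

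Ptgs2 and Sod2 fell in both fits. Ptgs2, the inducible cyclooxygenase that makes prostaglandins, was at 0, 0 and 0.259 CPM on plate A and 0 and 0.55 CPM on plate C with IL10, and at 2.498 to 19.2 CPM (median 5.71) with LPS_lo. Its log2 fold change was -2.92 (SE 0.50, adjusted p = 0.000233), and -3.50 (adjusted p = 0.00517) within plate A. Sod2, the mitochondrial superoxide dismutase and a known NF-kB target, ran from 261 to 368 CPM with IL10 and from 460 to 904 CPM without, with no overlap. It fell by only 1.08 on the log2 scale (SE 0.24, adjusted p = 0.00586; within plate A -1.15, adjusted p = 0.0115), and the lowest value with IL10 still exceeded the highest of the untreated cultures (188 CPM).

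Clec4e, or Mincle, a C-type lectin that senses microbial glycolipids and dead cells and a hub gene of the study, was at 7.39, 6.36 and 6.05 CPM on plate A and 0 and 11.3 CPM on plate C, against 12.3 to 143 CPM (median 73.6). Its log2 fold change was -3.37 (SE 0.66, adjusted p = 0.00144), and -3.06 (adjusted p = 0.00417) within plate A. Siglece, an inhibitory receptor for sialic acid, was at 9.12, 32.1, 6.22, 0 and 7.14 CPM in cultures 1 to 5, against 29.7 to 169 CPM. The highest of these 5 overlapped the LPS_lo range, and the log2 fold change was -3.37 (adjusted p = 0.000425; within plate A -3.21, adjusted p = 0.00077). Marco, a scavenger receptor for bacteria, went from 393 to 709 CPM with LPS_lo to 138, 134, 113, 79.5 and 102 CPM with IL10, a log2 fold change of -2.34 (SE 0.50, adjusted p = 0.0045; within plate A -2.26, adjusted p = 6.68e-05). These 5 values lay between those of LPS_lo and most untreated cultures (4.45 to 86.0 CPM).

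**Figure D2:**
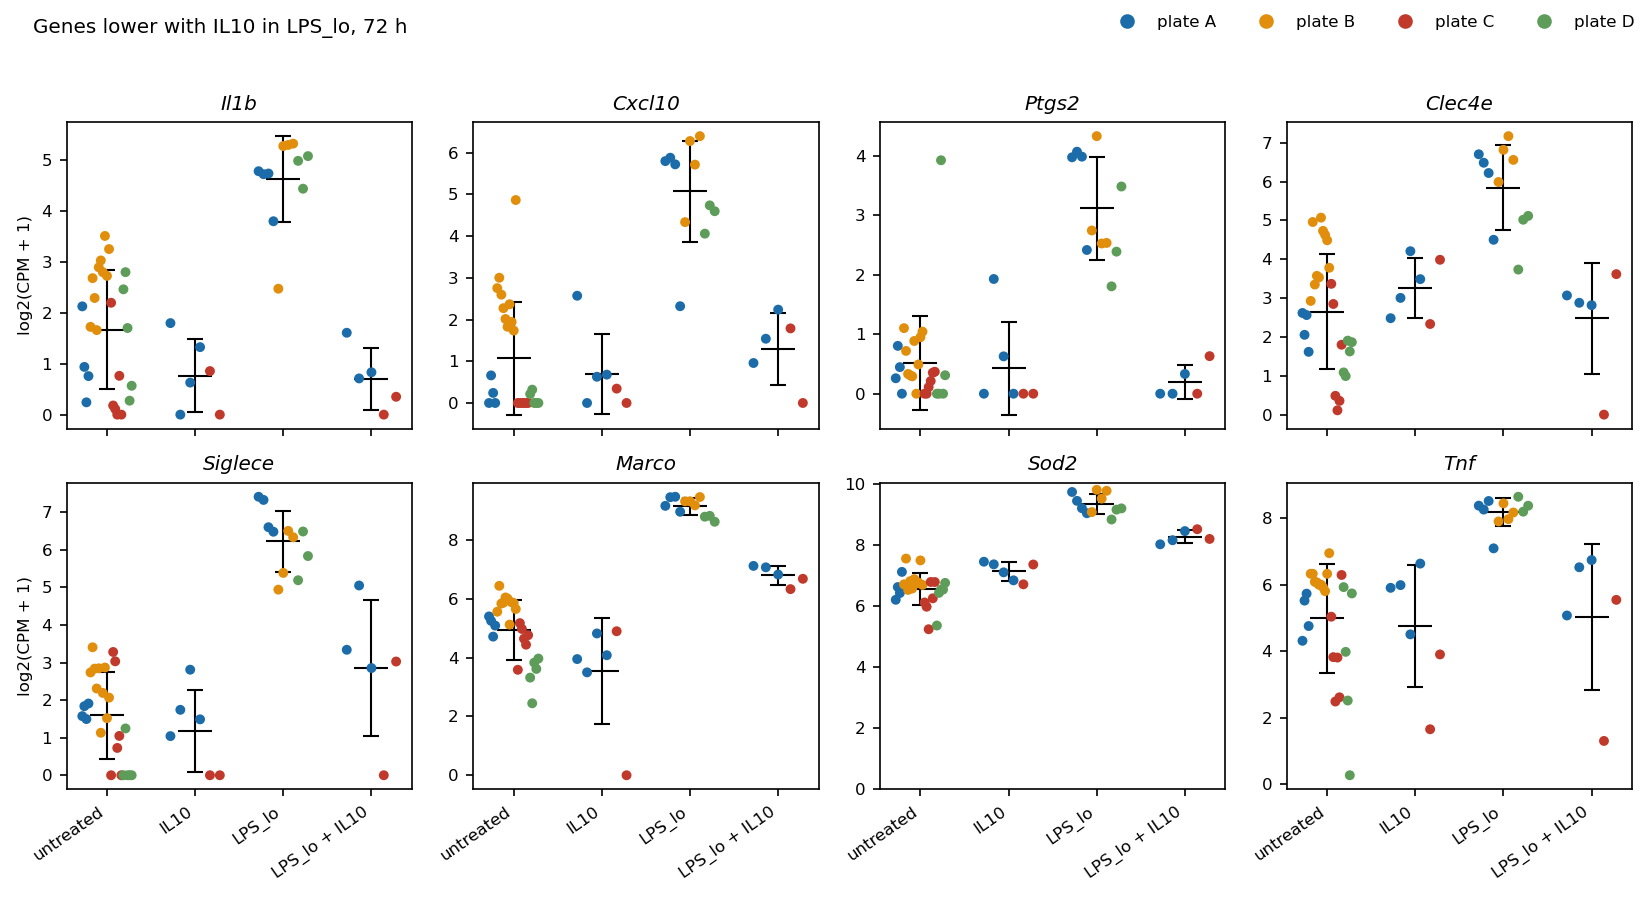
Levels of 8 genes that were lower with IL10, as log2(CPM + 1) on the vertical axis, in untreated (25 cultures), IL10 (6), LPS_lo (11) and LPS_lo + IL10 (5) cultures at 72 h. Each point is a culture coloured by its plate, the horizontal bars are group means and the whiskers 1 SD. The LPS_lo + IL10 points of Il1b, Cxcl10, Ptgs2 and Clec4e lie at the height of the untreated ones, while those of Sod2 and most of those of Marco stay above them.

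Further falls seen in both fits were Cd300e, an activating receptor of monocytes, the actin regulators Vasp and Gmfg, the kinase Pim1, the ubiquitin ligase Rnf19b, the sodium pump subunit Atp1b3, the class I related gene H2-Q6, and Ppfibp2 and Tmem134. Their log2 fold changes with all cultures ran from -2.75 (Cd300e; within plate A -3.36) to -1.19 (Atp1b3; within plate A -1.17). Vasp, for example, was at 145, 97.9 and 173 CPM on plate A and 73.6 and 42.3 CPM on plate C, below all 11 LPS_lo cultures (246 to 484 CPM). H2-Q6 has near-identical neighbours, among them H2-Q7, between which reads may be split, so its fall of 2.31 on the log2 scale is uncertain as to the gene.

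Several falls named for their size with all cultures missed the threshold within plate A. Fscn1, an actin bundler (log2 fold change -3.84 with all cultures and -3.24 within plate A), Rims3 (-3.41 and -3.01) and Gstt1 (-3.15 and -2.82) were close in both, with adjusted p within plate A of 0.45, 0.108 and 0.413. Arl5c (-3.34 and -2.43), the kinase Pim2 (-3.27 and -2.58), the A20-binding inhibitor Tnip3 (-2.98 and -2.39), Bcl2a1a (-3.12 and -2.12), which reads cannot well separate from its copies, and the phosphodiesterase Pde4b (-3.05 and -1.83) were smaller there. Usp1, a deubiquitinase of DNA repair, was at 44.8, 61.1 and 90.2 CPM on plate A but at 0.491 and 1.37 CPM on plate C, against 67.0 to 232 CPM. Its value was -2.97 with all cultures and -1.08 (adjusted p = 0.626) within plate A.

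Of the rises with all cultures, that of Spp1 (chromosome 5, 104435118 to 104441050), which encodes the secreted matrix protein osteopontin, had the smallest adjusted p. Spp1 was at 1436, 1148 and 1262 CPM on plate A and 475 and 283 CPM on plate C with IL10, against 60.1 to 235 CPM (median 107) with LPS_lo. The groups did not overlap, as for 0.288% of all genes with the higher level under IL10, and the plate C cultures lay well below those of plate A. The log2 fold change was 2.78 (SE 0.35, adjusted p = 3.5e-07), and 3.46 (SE 0.18, adjusted p = 3.36e-13) within plate A. Fn1, or fibronectin, was at 34.3, 54.5 and 43.8 CPM on plate A and 35.3 and 7.69 CPM on plate C, against 1.07 to 6.76 CPM, a log2 fold change of 2.88 (SE 0.58, adjusted p = 0.00228; within plate A 2.90, adjusted p = 0.00265).

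Il4ra (chromosome 7, 125552120 to 125579474), the receptor chain through which IL4 and IL13 signal and a known IL10 target, was at 223, 259 and 269 CPM on plate A and 550 and 336 CPM on plate C. In LPS_lo it was at 36.7 to 87.1 CPM (median 70.6), so that the lowest culture with IL10 lay far above the highest without. The log2 fold change was 2.32 (SE 0.42, adjusted p = 0.00053), and 1.99 (adjusted p = 0.044) within plate A. Wfdc17, a secreted antiprotease-like protein, and Cd5l, a secreted protein of macrophages, rose by 1.76 and 2.24 on the log2 scale (adjusted p = 0.0123 and 0.0284; within plate A 1.94 and 3.08, adjusted p = 0.00129 and 0.0232). Cd5l was at 87.6 to 109 CPM in the 5 cultures with IL10 and at 3.81 to 43.9 CPM in the 11 without.

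Trem2, Gas6, Apoe, Gpnmb and Fabp5 rose in both fits. Trem2, a receptor for lipids and apoptotic cells, was at 628, 745, 667, 999.5 and 459 CPM in cultures 1 to 5 and at 129 to 379 CPM in LPS_lo, with no overlap (log2 fold change 1.70, SE 0.23, adjusted p = 1.92e-06; within plate A 1.38, adjusted p = 0.000266). Gas6, the ligand that bridges dying cells to the receptors Mertk and Axl, was at 649, 694, 544, 687 and 513 CPM against 158 to 298 CPM (1.46, SE 0.24, adjusted p = 0.000122; within plate A 1.65, adjusted p = 0.000208). Apoe, the main lipid carrier of the brain, was at 17349, 16922 and 15790 CPM on plate A and 27018 and 26393 CPM on plate C. In LPS_lo it depended on the plate, with 7248 to 8473 CPM on plate A and up to 16915 CPM elsewhere, so that the groups overlapped over all plates and not within plate A (log2 fold change 1.35, adjusted p = 0.0109; within plate A 1.08, adjusted p = 0.000208). Gpnmb, a membrane protein of lysosomes, and Fabp5, a fatty acid carrier, rose by 1.13 and 1.71 on the log2 scale (within plate A 1.14 and 1.82) with no overlap between groups.

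Further rises seen in both fits were Ankrd44 (1.00; within plate A 1.38) and the processed pseudogenes Gm7389 (1.80; within plate A 2.24) and Gm6166 (1.59; within plate A 1.97), whose reads may come from their parent genes. Of the largest rises named with all cultures, the values within plate A were 2.47 for Zfp618, 1.82 for Timp1, 0.58 for Aimp2, 0.94 for Tspan13, 1.68 for Habp2, 1.37 for the kinase Sik1 and 1.44 for the histone demethylase Kdm5b, and none of these passed there. Pltp, a phospholipid transfer protein, had the largest rise with all cultures (4.19, SE 0.88, adjusted p = 0.004) but lay under the filter on low values within plate A and was not tested there.

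**Figure D3:**
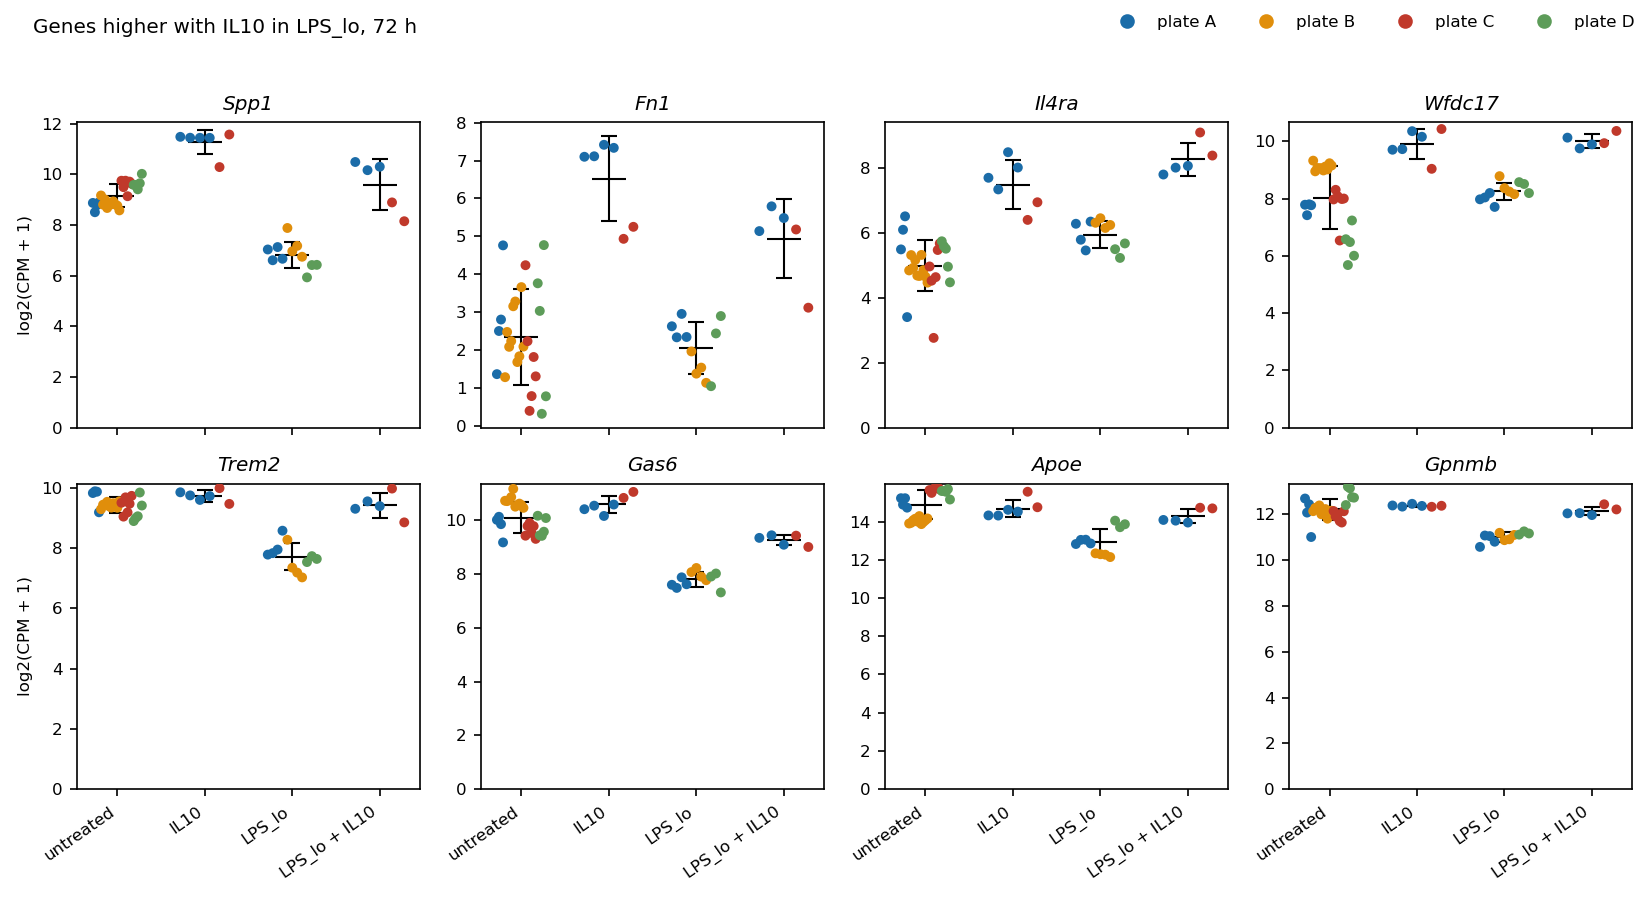
Levels of 8 genes that were higher with IL10, as log2(CPM + 1) on the vertical axis, in the same 4 groups at 72 h. Points are cultures coloured by plate, bars are means and whiskers 1 SD. Spp1, Fn1, Il4ra and Wfdc17 were also high with IL10 alone, while Trem2, Gas6, Apoe and Gpnmb with LPS_lo + IL10 lie between LPS_lo and untreated cultures or among the latter.

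IL10 given without LPS was compared with the untreated cultures. All 5 LPS_lo + IL10 cultures, 9 of the 11 with LPS_lo and 5 of the 6 with IL10 alone stood in middle wells, but only 10 of the 25 untreated ones, all of them on plate B, and the part of the well position was not tested. IL10 alone raised 74 of 11816 genes (0.626%) and lowered 222 (1.88%), 296 in all. Within plate A, where no untreated culture stood in a middle well and all 4 with IL10 alone did, so that position and treatment cannot be told apart, it raised 349 of 10239 (3.41%) and lowered 289 (2.82%). The 296 genes became 706 with plate in the model and 1077 without the untreated edge wells. Of the 14 genes that rose in LPS_lo in both fits, 8 also rose with IL10 alone, namely Fn1 (log2 fold change 4.18), Cd5l (2.99), Il4ra (2.49), Spp1 (2.11), Wfdc17 (1.88), Fabp5 (1.43), Gm7389 (1.38) and Gm6166 (1.33), and these 8 passed within plate A too (1.96 to 4.38). With all cultures the values of the other 6 were between -0.21 for Apoe and 0.50 for Gas6 and did not pass, while 1 of them passed within plate A. Of the 17 that fell in LPS_lo, Ppfibp2 fell with IL10 alone with all cultures (-1.43, adjusted p = 0.042) and within plate A (-1.57, adjusted p = 0.0207). Marco (-1.40) and Rnf19b (-0.70) did not pass with all cultures but fell within plate A (-1.03 and -1.18, adjusted p = 0.0159 and 0.0077). Il1b, Cxcl10 and Ptgs2 were at median levels of 2.30, 0.182 and 0.240 CPM in untreated cultures, which left little room for a fall.

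The change with IL10 in LPS_lo was then tested against the change with IL10 alone. The labels give no IL10 dose for the combination, so the doses may not be the same. Untreated cultures enter the difference between the changes, and none of those on plate A stood in a middle well. Well position and treatment therefore cannot be told apart in this difference there. This difference passed for 32 of 11816 genes (0.271%), 7 higher (0.0592%) and 25 lower (0.212%), and within plate A for 98 of 10239 (0.957%), 30 higher (0.293%) and 68 lower (0.664%). Trem2 changed by 1.40 more in LPS_lo (adjusted p = 0.018; within plate A 1.34, adjusted p = 0.0097). The difference was below 0 for Clec4e (-3.97, adjusted p = 0.02), Cxcl10 (-3.40, 0.044), Ptgs2 (-2.83, 0.037), Sod2 (-1.66, 0.0046) and Vasp (-2.51, 4e-05), and these also passed within plate A. With IL10 alone, the values were 0.60 for Clec4e, 0.58 for Sod2, 0.62 for Vasp, -0.37 for Cxcl10 and -0.09 for Ptgs2. None of these passed with all cultures. For Il1b the difference was -3.02 (adjusted p = 0.037), and -3.38 (adjusted p = 0.055) within plate A. The low untreated levels of Il1b, Cxcl10 and Ptgs2 left little room for a fall with IL10 alone. All genes named in this paragraph were chosen by their change in LPS_lo, which enters the difference, so their values are a description. For Spp1 (0.67, adjusted p = 0.64) and Il4ra (-0.17, adjusted p = 0.94) no difference between the settings was detected.

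A large difference of this kind was that of Socs3 (chromosome 11, 117966079 to 117970047), the feedback inhibitor of cytokine receptors. Its level was 0 to 17.98 CPM in untreated cultures, 136 to 246 CPM with IL10 alone, 9.40 to 106 CPM (median 53.5) with LPS_lo and 85.5, 103, 148, 86.4 and 79.7 CPM with LPS_lo + IL10. IL10 thus raised it by 5.71 on the log2 scale without LPS (adjusted p = 7.8e-16), and by 1.04 in LPS_lo (SE 0.52, adjusted p = 0.325), where it did not pass. The difference was -4.67 (adjusted p = 2.9e-05), and -3.96 (adjusted p = 0.009) within plate A. Cd36, a scavenger receptor for lipids, was lowered by IL10 alone (-1.97, adjusted p = 1.2e-05) and not in LPS_lo (0.18, adjusted p = 0.867), with a difference of 2.15 (adjusted p = 0.018; within plate A 1.93, adjusted p = 0.021).

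Of the 7 listed components of the IL10 route, Socs3 among them, none rose and 2 fell with all cultures, Il10 itself (-1.94, adjusted p = 0.0247) and Il10ra (-2.11, adjusted p = 0.00586), against 1.26% of all genes, and none passed within plate A. Il10 was listed at 0 to 1.73 CPM with IL10 and at 0 to 11.8 CPM with LPS_lo, close to the limit of detection. Il10ra was at 39.8, 28.3 and 46.0 CPM on plate A and 4.42 and 6.05 CPM on plate C, below the 50.8 to 115 CPM of all LPS_lo cultures. Il10rb (-0.36, SE 0.24), Jak1 (-0.54, SE 0.30), Tyk2 (0.04, SE 0.48) and Stat3 (-0.29, SE 0.54) did not pass. Of the 14 genes listed as raised by IL10 in macrophages, 11 were tested and only Il4ra rose, while Tnip3 fell. Over all genes 0.296% rose and 1.26% fell. LPS_lo had raised 7 of these 11 over untreated cultures (5.54% of all genes), with a median log2 fold change of 1.79. IL10 alone raised 2 of them (0.626% of all genes) and lowered 1 (1.88%).

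**Figure D4:**
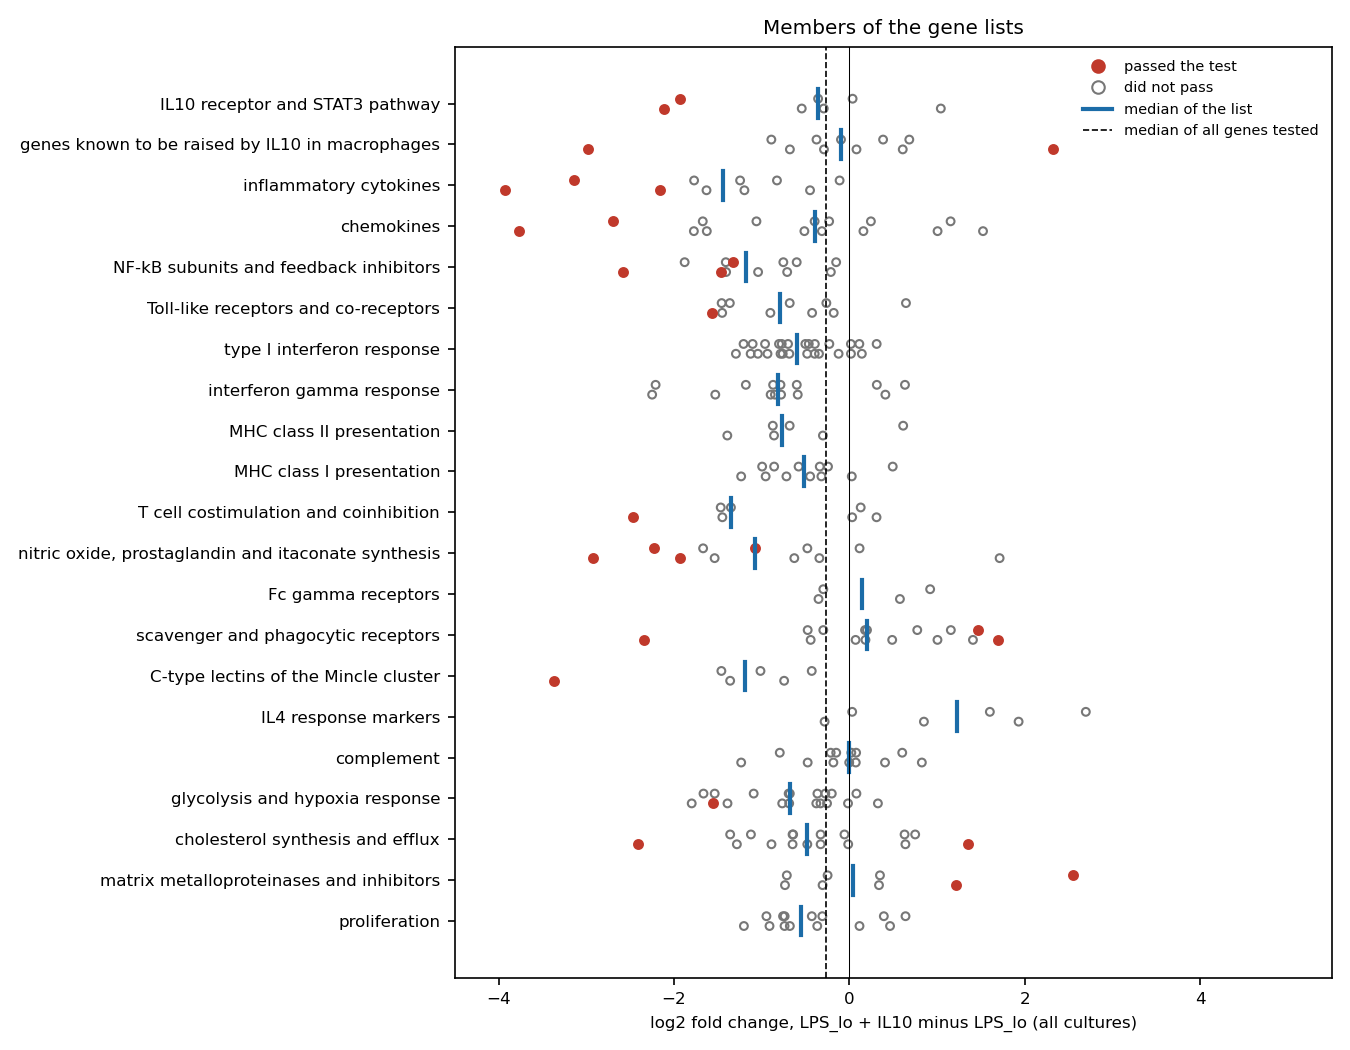
Log2 fold change of LPS_lo + IL10 over LPS_lo with all cultures (horizontal axis) for the members of 21 gene lists (vertical axis). Filled points passed the test, open points did not, blue bars are list medians and the dashed line the median of all genes tested (-0.27). The median of the inflammatory cytokines lies at -1.44 with 3 members past the test, and that of the type I interferon genes at -0.59 with none.

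Among the inflammatory cytokines, 3 of the 10 members tested fell and none rose: Il1b, Tnf and Il15 (-2.16, adjusted p = 0.022; within plate A -1.18). All 10 values were below 0, with a median of -1.44, and within plate A 7 of 8 were, with a median of -1.49, and only Il1b passed. Of all genes, 1.26% fell and 7735 of 11816 values were below 0 with all cultures, and 0.234% fell and 5525 of 10239 values were below 0 within plate A. Il6 and Il12b had at most 1.06 and 2.51 CPM in any of the 16 cultures and were not tested. Nos2, the inducible nitric oxide synthase, was at 0 to 16.2 CPM with IL10 and 0.663 to 35 CPM without, and its value of -1.54 (SE 0.76, adjusted p = 0.323) did not pass. Of the 11 genes of nitric oxide, prostaglandin and itaconate synthesis, 4 fell: Ptgs2, Sod2, Ass1, which recycles citrulline to arginine (-2.22; within plate A -2.04), and Irg1, which makes itaconate (-1.93; within plate A -1.87). Only Ptgs2 and Sod2 passed within plate A.

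Of 15 chemokines tested, Cxcl10 and Cxcl9 (-2.69; within plate A -1.71) fell and none rose, 10 values were below 0 and the list median was -0.40. Over all genes tested 1.26% fell, 7735 of 11816 values were below 0 and the median was -0.27. Ccl5, which attracts T cells and monocytes, was at 2477, 3147 and 3878 CPM on plate A and 3674 and 3502 CPM on plate C with IL10, below the 5350 to 15214 CPM of all 11 LPS_lo cultures. Its log2 difference of -1.77 missed the threshold with all cultures (adjusted p = 0.119) and passed within plate A (-1.84, adjusted p = 0.0208). The monocyte chemokines Ccl2 (-0.40), Ccl7 (-0.23), Ccl8 (1.52) and Ccl12 (1.00) did not pass. Ccl2 had median levels of 83.8 CPM with IL10 and 104 CPM without.

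Of 12 NF-kB subunits and feedback inhibitors 3 fell, namely Nfkb1 (-1.46), Nfkbiz (-2.58) and Tnip1 (-1.33), all 12 values were below 0 and the median was -1.18. Within plate A 11 values were below 0, the median was -0.55 and none passed, with -0.52 for Nfkb1, -1.45 for Nfkbiz and -1.45 for Tnip1. Over all genes tested 1.26% fell and 7735 of 11816 values were below 0 with all cultures. Within plate A these were 0.234% and 5525 of 10239. Nfkb2 did not pass (-1.41, adjusted p = 0.174), though its change differed from that with IL10 alone (-2.87, adjusted p = 0.048; within plate A -2.38, adjusted p = 0.044). Irak3, an inhibitor of Toll-like receptor signalling and a hub gene, was at 18.6 to 55.3 CPM with IL10 and 61.9 to 180 CPM without, with no overlap, but its value of -1.41 (SE 0.55, adjusted p = 0.185) did not pass. Of 10 Toll-like receptors and co-receptors only Cd14 fell (-1.56; within plate A -1.47, adjusted p = 0.278), and of 7 costimulatory and coinhibitory genes only Cd274, which encodes PD-L1 (-2.47, adjusted p = 0.00309; within plate A -1.81, adjusted p = 0.371).

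None of the type I interferon genes passed with IL10 added to LPS_lo. Over all genes 1.56% passed with all cultures and 0.420% within plate A, so a list of 26 with no call is near that share. All 26 listed type I interferon genes were raised by LPS_lo over untreated cultures (5.54% of all genes were), with a median log2 fold change of 3.95. With IL10 added, in neither fit did any of the 26 pass, with medians of -0.59 with all cultures (21 of 26 values below 0) and -0.54 within plate A (22 of 26). The medians of all genes were -0.27 and -0.06. Against untreated cultures, 25 of the 26 were still raised in LPS_lo + IL10 (2.75% of all genes were), with a median of 3.38. These comparisons share cultures and are given side by side. Ifit3, an antiviral effector and hub gene, was at 1642, 1740 and 1382 CPM on plate A and 2581 and 1588 CPM on plate C, against 1020 to 2839 CPM with LPS_lo and a median of 77.4 CPM without stimulus. Its log2 difference was 0.02 (SE 0.71), and 0.05 (SE 0.34) within plate A. Ifit1 was at 490 to 709 CPM with IL10 and at 1041 to 1581 CPM with LPS_lo, with no overlap, though its value of -1.10 did not pass. Ddx58, which encodes the RNA sensor RIG-I, was at 157 to 379 CPM with IL10 and at 397 to 832 CPM with LPS_lo, again with no overlap and a value of -1.21 that did not pass. Whether the list changed less than Cxcl10 was not tested. None of 14 interferon gamma genes passed (median -0.82), and 11 of the 14 values were below 0. Gbp2 (-2.25) was lower with IL10 with no overlap, while Naaa, a hub gene and lysosomal amidase, was at 0.31 (SE 0.63). None of 12 class I (median -0.51) or 6 class II (median -0.77) presentation genes passed. In lists of this length, no call is near the share of all genes.

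The promoter of Cxcl10 is shown because it matches an interferon and an NF-kB motif. The 300 bases from 250 before to 50 after the gene start (RefSeq, GRCm38.p6, chr5:92348840-92349139, minus strand) are printed in lower case, with the letters that match an interferon response motif (GAAA, any 2 bases, GAAA) and an NF-kB motif (GGGA, any 2 bases, TTCC), in this order, in capitals. The promoter of Sod2 (chr17:13007589-13007888, plus strand) is shown for its match to the STAT motif TTCNNNGAA.
Cxcl10: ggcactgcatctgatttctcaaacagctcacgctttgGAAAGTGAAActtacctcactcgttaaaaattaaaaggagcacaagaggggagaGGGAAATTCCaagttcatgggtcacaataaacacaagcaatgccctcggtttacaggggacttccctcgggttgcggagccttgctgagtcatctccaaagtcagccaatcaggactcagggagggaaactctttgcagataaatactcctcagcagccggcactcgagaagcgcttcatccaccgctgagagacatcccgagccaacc
Sod2: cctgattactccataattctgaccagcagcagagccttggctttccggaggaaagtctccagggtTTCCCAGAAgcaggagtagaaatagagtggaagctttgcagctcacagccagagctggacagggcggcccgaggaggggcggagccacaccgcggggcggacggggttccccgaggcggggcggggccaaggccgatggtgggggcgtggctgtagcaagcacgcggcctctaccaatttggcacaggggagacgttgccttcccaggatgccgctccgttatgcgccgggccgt
Motifs were searched on both strands, and these 3 do not overlap here. Of the 17 genes that fell in both fits 15 had a promoter in the table, with 21 promoters in all. The NF-kB and interferon motifs were found in 1 each (4.76%), that of Cxcl10, and the STAT motif in 2 (9.52%), those of Sod2 and Cd300e. Over all promoters the shares were 1.47% for the NF-kB, 3.44% for the interferon and 8.30% for the STAT motif. Of the 14 genes that rose, 9 had a promoter, and only that of Spp1 held a motif, the interferon one.

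The remaining lists were counted beside all genes, of which 1.26% fell and 0.296% rose with all cultures. Within plate A 0.234% fell and 0.186% rose. Of 15 scavenger and phagocytic receptors and ligands Gas6 and Trem2 rose and Marco fell in both fits, and Mrc1 (1.16), Mertk (1.41) and Stab1 (1.00) did not pass. Of 6 lectins of the Mincle cluster only Clec4e fell. Of 17 genes of cholesterol synthesis and efflux Apoe rose, and Mylip, which degrades the LDL receptor, fell with all cultures only (-2.41; within plate A -0.66, adjusted p = 0.605). Mylip was at 117, 59.8 and 95.1 CPM on plate A and 0.491 and 24.2 CPM on plate C. Hif1a was the only 1 of 19 genes of glycolysis and the hypoxia response to fall (-1.56, adjusted p = 0.0323; within plate A -0.99). Timp1 (2.54) and Timp2 (1.21), inhibitors of matrix metalloproteinases, rose among 8 tested, and neither passed within plate A. Adgre1, which encodes the macrophage antigen F4/80, was at 359 to 533 CPM with IL10 against 831 to 1548 CPM with LPS_lo, with no overlap (-1.28, SE 0.21, adjusted p = 0.000157; within plate A -1.17, adjusted p = 0.0728). No member of the lists of Fc gamma receptors (4 tested), complement (13), IL4 response markers (6) or proliferation (14) passed with all cultures. In lists of this length, that is near the share of all genes. Within plate A Cfp, or properdin, fell (-1.23, adjusted p = 0.00542).

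The calls were also counted in 31 of the gene modules of the study, built from conditions that left out LPS with a modulator, and 21 of these 31 held a call. With all cultures 1.26% of all genes were lower and 0.296% higher. Within plate A 0.234% were lower and 0.186% higher, and no test of the modules was made. The module CY_turquoise had 10 of its 38 genes lower and none higher, with a median log2 fold change of -1.20, and 6 lower within plate A with the same median. CY_red had 5 of 26 lower (1 of 26 within plate A), CY_brown 5 of 28 (1 of 24) and PI_blue 4 of 18 (2 of 17). YE_turquoise had 17 of 101 lower and 2 higher, Ankrd44 and Wfdc17, with all cultures (median -0.78), but 3 lower and 2 higher of 96 within plate A (median -0.46). A further 10 modules had 1 or 2 lower genes each. Rises were found in TQ_turquoise (7 of 143, and 4 of 142 within plate A), TQ_magenta (6 of 34, and 7 of 33 within plate A) and TQ_purple (3 of 32, and 1 of 32 within plate A), and these 3 had no lower gene. TQ_green, with Fn1, TQ_black, with Zfp618, and BL_blue, with Romo1, had 1 higher gene each. LPS_lo raised 121 of 148 genes of BR_turquoise and 34 of 45 of BR_blue, against 5.54% of all genes. With IL10 added, 2 of the 148 and 0 of the 45 were lower, which is near the share of all genes. These modules had been defined on related cultures, so that their genes are not independent of each other.

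IL10 was also set beside the other cytokines given with LPS_lo. On plate A all 4 cultures with IL4 came from 1 library pool, and all 4 with IL13 and all 3 with the 3 cytokines from another. LPS_lo + IL10 had 2 cultures in the former and 1 in the latter, so that pool and treatment are partly mixed there. Plate C held 2 cultures with LPS_lo + IL10 but only 1 each with IL4 and IL13. Against LPS_lo + IL4, 24 genes were higher (0.203%) and 71 lower (0.601%) with LPS_lo + IL10, and 43 of these 95 also passed within plate A, where 0.254% of genes were higher and 0.371% lower. Arg1 and Slc7a2, an arginase and an arginine transporter induced by IL4, were lower by 5.33 and 5.92 on the log2 scale (adjusted p = 0.0001 and 3e-08), with median levels of 23.3 and 11.9 CPM with IL10 and 752 and 824 CPM with IL4. Itgax (-4.26), the lectin Clec7a (-2.06), the complement component C3 (-2.97), Cxcl2 (-3.18) and Socs1 (-3.27) were lower in both fits. Socs3 (3.40, adjusted p = 0.00026), Il4ra (2.79), Wfdc17 (3.00), Cd5l (2.93), Ankrd44 (2.34), Apoe (1.78) and Fabp5 (1.5) were higher in both. With IL4, Il1b was at 0 to 1.47 CPM (difference -0.05, SE 0.63, not passed) and Ptgs2 at 1.33 to 53.3 CPM (difference -3.11, SE 0.59, adjusted p = 0.00076; within plate A -2.58, adjusted p = 0.052).

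Against LPS_lo + IL13, 10 genes were higher (0.0846%) and 14 lower (0.118%), 13 of the 24 in both fits, with 0.0977% higher and 0.117% lower within plate A. Il1b was at 5.28 to 45.3 CPM with IL13, a difference of -3.08 (adjusted p = 0.0069; within plate A -2.76, adjusted p = 0.067). Ptgs2 (-3.60), Siglece (-3.61), Rnf19b (-2.62) and Slc7a2 (-3.54) were lower with IL10 in both fits, and Il4ra (2.84), Wfdc17 (2.25), Spp1 (2.19), Ankrd44 (2.02) and Gas6 (1.63) were higher.

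With IL4 and IL13 added to LPS_lo + IL10, 130 genes were higher (1.10%) and 64 lower (0.542%), 120 of these 194 in both fits, with 1.17% higher and 1.24% lower within plate A. All 3 plate A cultures with the 3 cytokines stood in bottom edge wells and all with LPS_lo + IL10 in middle wells, so that position and treatment cannot be told apart there, while on plate C both groups stood in middle wells. Marco went from 79.5 to 138 CPM down to 1.54 to 23.2 CPM (log2 fold change -3.38, adjusted p = 0.00011). Sod2 (-1.35), Irg1 (-2.18), the inhibitor Nfkbia (-1.67), Tlr2 (-2.56), Fcgr1 (-1.87), Msr1 (-1.09), Cfb (-3.61), Cd5l (-3.19), Ankrd44 (-2.14) and Apoe (-1.58) were also lower in both fits. Arg1 (5.72), Slc7a2 (4.87), Chil3 (4.65), Mrc1 (3.58), Itgax (4.99), Ccl8 (4.70), Clec7a (2.28) and the metalloproteinases Mmp12 (3.58) and Mmp13 (6.15) were higher in both. Spp1 (0.46, SE 0.41), Gas6 (0.00, SE 0.28), Trem2 (-0.18, SE 0.27) and Il1b (0.31, SE 0.63) did not pass, with 434 to 2240.4 CPM of Spp1 and 0.515 to 1.63 CPM of Il1b in the 5 cultures with all 3 cytokines. Fn1 (2.26, adjusted p = 0.076) missed the threshold with all cultures and passed within plate A (2.09, adjusted p = 0.023).

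**Figure D5:**
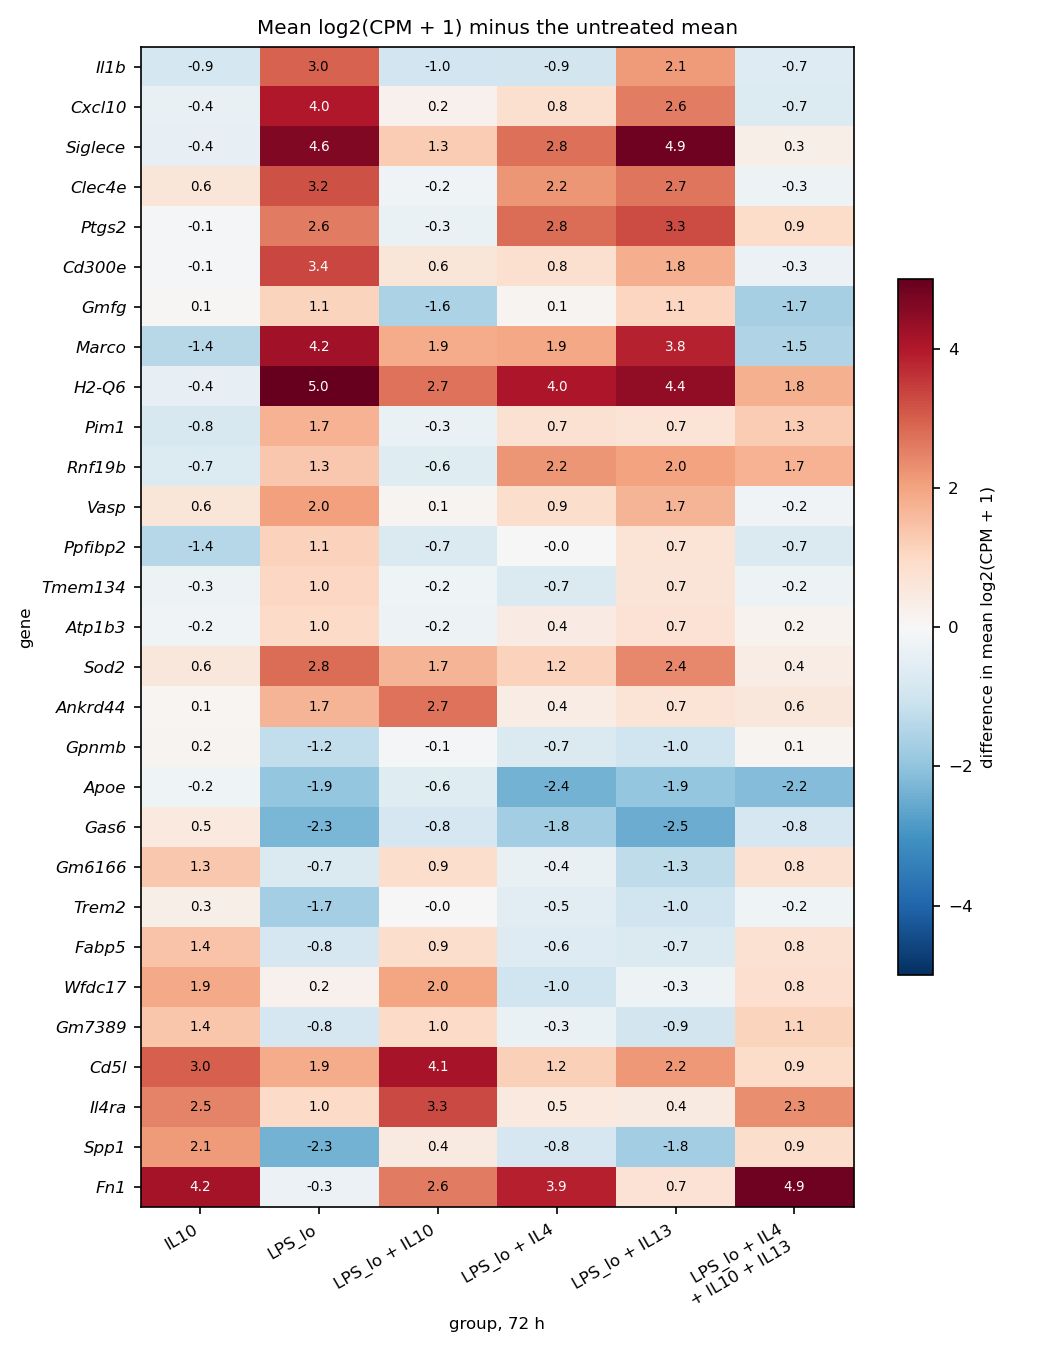
Difference of the mean log2(CPM + 1) of each group at 72 h from that of the 25 untreated cultures, for 29 of the 31 genes that passed in both fits (vertical axis) and 6 groups (horizontal axis), red for higher and blue for lower. Il1b is at 2.96 with LPS_lo and 2.12 with LPS_lo + IL13, and at -0.97, -0.91 and -0.65 in the other 3 LPS_lo combinations, while Il4ra is at 2.33 to 3.28 in the groups that received IL10 and at 0.45 to 0.96 in the others.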

How the data were processed

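Gene expression was measured in 62 cultures of the 72 h time point, in 7 groups taken from the labels. The authors quantified 3′-end libraries with Salmon 0.7.1 against Ensembl 81 and deposited CPM, the reads of a gene divided by all mapped reads of the culture and multiplied by 1e6. Libraries had been amplified before sequencing, and whole reads could not be recovered from the CPM, so no count model was used.

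Values were analysed as log2(CPM + 1), keeping 11816 genes that exceeded 5 CPM in 4 or more cultures, with limma 3.58.1 (R 4.3.3) and a mean-variance trend over all 7 groups. Calls required a Benjamini-Hochberg adjusted p under 0.05 over all genes and a log2 difference of 1 or more in either direction, in 8 comparisons. The fit was repeated for plate A alone. Scripts were tested on simulated data. Alternatives covered the pseudocount, filter, scaling, plate, library pool, culture weights, fitted groups, an exact rank-sum test and each culture left out in turn.

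The members and gene lists were chosen with earlier results of these data known. Named genes were the 15 largest rises and the 15 largest falls with at least 10 CPM in a group and the same direction within plate A, list members that passed, the IL10 route, classical inflammatory genes and 4 hub genes. Others in the text, including the 31 genes that passed in both fits, were chosen after their values were seen. A few genes that passed are counted but not reported here by name. Gene positions are those of GRCm38, and promoters those of RefSeq. Tables and plots were made with Python 3.11.15, numpy 2.4.6, pandas 2.3.3, scipy 1.17.1 and matplotlib 3.10.9.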

Additional observations from a re-analysis of the deposited data

Results flagged for a closer look

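Among 122 groups of named genes, 15 had a culture far from the others. The groups share cultures across genes, and several of the levels are at or near 0 CPM. Whether this count exceeds chance was not tested. With LPS_lo + IL10, culture 5 (plate C) was lowest for Fn1 at 7.69 CPM, culture 4 (plate C) was lowest at 0 CPM for Clec4e, Bcl2a1a and Il15, and culture 3 (plate A) was highest for Gstt1 at 0.259 CPM. With IL10 alone, culture 5 (plate C) was lowest for Spp1 at 1249 CPM, Cd5l at 9.96 CPM and Fabp5 at 590.3 CPM, and highest for Apoe at 48245 CPM. Culture 1 (plate A) of that group was highest for Cxcl10 at 4.94 CPM and Il10 at 10.2 CPM. Its culture 2 (plate A) was lowest for Il10ra at 15.9 CPM and highest for Ptgs2 at 2.81 CPM, culture 3 (plate A) was highest for Gstt1 at 30.04 CPM, and culture 6 (plate C) was lowest for Marco at 0 CPM.

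For 14 named genes the change with IL10 in LPS_lo differed from that with IL10 alone in limma's test of the difference. The log2 difference was 3.83 for Tspan13, 2.15 for Cd36 and 1.40 for Trem2. It was -4.67 for Socs3, -3.97 for Clec4e, -3.62 for Rims3, -3.40 for Cxcl10, -3.38 for Fcrls, -3.02 for Il1b, -2.87 for Nfkb2, -2.83 for Ptgs2, -2.80 for Cd274, -1.66 for Sod2 and -1.23 for Adgre1. The difference also passed within plate A for Cd36, Trem2, Socs3, Clec4e, Cxcl10, Nfkb2, Ptgs2 and Sod2, and not for Il1b and Cd274. The change of Fcrls in LPS_lo turned sign there. Il1b, Cxcl10 and Ptgs2 had little room to fall without LPS_lo. Genes named for their change in LPS_lo were chosen by a part of this difference.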

How the results depend on the processing

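The 184 genes that passed between LPS_lo + IL10 and LPS_lo became 320 with only these groups fitted, 278 with culture weights, 45 with the library pool in the model, 43 within plate A and 47 there with median-ratio scaling. The count became 39 with plate C left out and 391 with the untreated edge wells left out, and leaving out 1 culture gave 55 to 361, with 55 without LPS_lo + IL10 culture 4, 59 without culture 5 and 361 without culture 3. The exact rank-sum test gave 100 genes after Benjamini-Hochberg adjustment and 0 after Bonferroni correction, which its smallest p of 0.000458 cannot pass over 11816 genes, while 1574 genes had an unadjusted p under 0.05. Without plate C the counts were 14 (main 32) for the difference between IL10 changes, 339 (1026) for LPS_lo + IL10 over untreated, and 35 (95), 12 (24) and 104 (194) against IL4, IL13 and all 3 cytokines. With plate in the model they were 706 (296) for IL10 alone, 92 for the difference, and 154, 39 and 314 against the other cytokines, and with pool in the model 312 for LPS_lo + IL10 over untreated and 197, 39 and 377 against the other cytokines. Without the untreated edge wells they were 1899 (1132) for LPS_lo over untreated, 1077 for IL10 alone, 85 for the difference, 2528 for LPS_lo + IL10 over untreated, and 181, 39 and 338 against the other cytokines. The difference between IL10 changes gave 20 genes with a pseudocount of 0.5 and 19 without the reads of Hnrnpll. The cause of these shifts was not tested. Leaving out plate C, the untreated edge wells or Hnrnpll, and median-ratio scaling within plate A, were chosen after seeing the data.

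Of 51 named genes that passed, 39 still did with plate in the model, 18 within plate A and 17 without plate C. The sign turned for 5 named genes, of which only Nfkb1 had passed (0.034 with the library pool in the model). Cd36 turned to -0.10 with plate in the model. Fcrls turned to 0.52 with pool in the model, 0.57 within plate A, 0.63 there with median-ratio scaling, 0.46 with culture weights, 0.58 without plate C and 0.045 without LPS_lo + IL10 culture 4 (lowest -1.20 with 1 culture left out). Tyk2 turned to -0.45 within plate A, -0.39 there with median-ratio scaling, -0.088 without plate C, and ran from -0.20 to 0.34 with 1 culture left out. Ifit3 turned to -0.12 with culture weights, -0.13 without plate C and from -0.12 to 0.10 with 1 culture left out. No paired analysis was possible because the labels carry no replicate numbers that the groups share. The cell lot could not be fitted, since all cultures came from 1 lot. Depth of 1048800 reads in the shallowest LPS_lo culture limits genes of few CPM, such as Il10, Il6 and Il12b.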
